A study of Mus musculus with 6 samples.

Results

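Mir21a is the mouse gene of the microRNA miR-21, a small RNA that pairs with messenger RNAs and lowers their translation and stability. Its row was found by gene name and is 1 of 2207 rows annotated as miRNA among 30638 rows of small RNA counts from mouse heart. The 3 knockout mice (titled L/L, cre, genotype label Elac2 -/-) lost a loxP-flanked Elac2 exon in cells that express cre from the muscle creatine kinase promoter. The 3 control mice (titled L/L) carry no cre, and their genotype label reads Elac2 +/+ although the title names floxed alleles. All 6 mice are labelled C57BL/6, with no age given. RNA came from crude hearts, so non-muscle cells, which this promoter does not target, contributed to every library. Inserts of 15 to 100 nt were sequenced.

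Elac2 encodes RNase Z, which trims the 3′ end of immature tRNAs of nuclear and mitochondrial origin. The series compares its loss in heart muscle with floxed hearts across non-coding RNAs. MiR-21 is one of the most studied microRNAs of the diseased heart. It is abundant in fibroblasts and macrophages, its level is known to rise in pressure-overloaded and failing hearts, and its described targets include Spry1 and Pdcd4. The reads measured here give its level only, since nuclear messenger RNAs, Elac2 and the stress markers Nppa and Nppb included, were not analysed here.

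The sequences below, from RefSeq on GRCm38.p6, show what a miR-21 read can be told apart from. Capitals mark the seed, bases 2 to 8 from the 5′ end, which is the stretch that pairs with target messengers.
miR-21a-5p: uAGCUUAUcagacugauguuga
miR-21a-3p: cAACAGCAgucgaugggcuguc
miR-21b: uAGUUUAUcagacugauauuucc
miR-21c: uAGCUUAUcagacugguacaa
The first 2 are the arms of the Mir21a hairpin, and the counts are per hairpin, so the arms cannot be separated. Of 1738 mature sequences in the RefSeq table, 2 carry the seed of miR-21a-5p, its own and that of miR-21c. MiR-21c differs from miR-21a-5p by A16G, G18A, U19C, U20A and G21A, with positions counted from 1 at the 5′ end and no gap allowed. MiR-21b has a changed seed (C4U) and further differences at G18A, G21U and A22C. The rows of both copies were nearly empty. Mir21c had 5, 3 and 1 counts in knockout replicates 1 to 3 and 1, 5 and 2 in control replicates 1 to 3. Mir21b had 2, 0 and 0 counts in knockout libraries and 1, 2 and 5 in control libraries. Neither passed the filter on low counts. Mir590, of the same family, had no row of that name and was not analysed here.

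Mir21a is annotated at chr11:86584067-86584158 on the minus strand (GENCODE M21, GRCm38, 92 nt). It lies inside the last exon of Vmp1, a gene of autophagosome formation, at 86583865 to 86585451 on the same strand, and within the 3′ UTR of that exon (86583865 to 86585310). Vmp1 codes for a protein and is not a row of the table. A fragment of the Vmp1 messenger that covers the hairpin could therefore be counted as Mir21a, and the counts do not separate it from the microRNA. Within 1000000 bases on either side there were 31 other rows, of which 12 had a count in any library. The nearest of these, the processed pseudogene Gm11478 inside Vmp1 at a distance of 46.3 kb, had 3, 1 and 0 counts in knockout and 8, 19 and 27 in control libraries. The next, the misc_RNA row Gm25427 at 251 kb, had 1 count in each knockout library and 1, 2 and 2 in control libraries.

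Mir21a rose in knockout hearts, and every knockout library lay above every control library. Its raw counts were 138765, 130477 and 101835 in knockout replicates 1 to 3, against 47858, 55256 and 58301 in control replicates 1 to 3. Library totals ran from 14505705 to 15271036 in knockout and from 13510061 to 16248673 in control hearts. Scaled by TMM factors (trimmed means of log ratios between libraries) to CPM, counts per 1000000 counts of a library, Mir21a had 10075, 10317 and 7659.65 CPM in knockout libraries and 3109, 3111 and 3184 CPM in control libraries. The control libraries lay within a narrow band, while knockout replicate 3 was lower than the other two knockout libraries. The means were 9350.3 ± 1469 CPM in knockout and 3135 ± 42.6 CPM in control hearts (SD, n = 3 each), with SDs of 15.7% and 1.36% of the mean. The log2 fold change was 1.58 (SE 0.15, 95% interval 1.25 to 1.90, adjusted p = 6.76e-06 by edgeR's quasi-likelihood test over 1144 tested rows), which is 2.98-fold higher, with an interval from 2.38-fold to 3.74-fold. In that test 50.2% of all rows were called in either direction and 23.2% were called higher. Among the 312 tested miRNA rows 23.4% were called, 17% higher and 6.41% lower. The groups did not overlap in 63% of all tested rows and in 41.7% of the miRNA rows. In whole hearts, more cells of a type that holds miR-21 and more miR-21 per cell cannot be told apart.

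**Figure D1:**
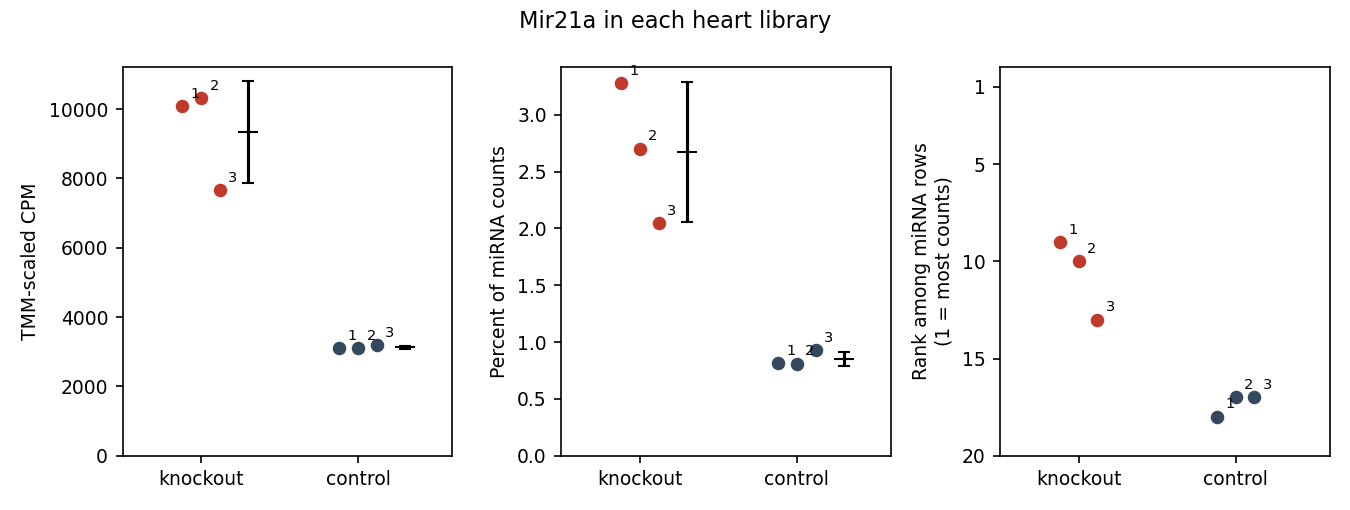
Mir21a in the 3 knockout and the 3 control heart libraries as TMM-scaled CPM, as percent of all miRNA counts and as rank among miRNA rows; points are libraries with their replicate number, and the bars beside them are mean and SD (none for ranks). All knockout points lie above the control points in level and share, and at better ranks (9, 10 and 13 against 18, 17 and 17).

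Shares of counts within a library need no scaling between libraries. Of all miRNA counts, Mir21a took 3.28%, 2.70% and 2.04% in knockout libraries and 0.817%, 0.810% and 0.926% in control libraries. Exact (Clopper-Pearson) 95% intervals of these shares were at most 0.0340 percentage points wide and cover counting error only. The mean share was 2.68% ± 0.618 in knockout and 0.851% ± 0.0654 in control hearts (SD, n = 3 each), 3.14 times higher, with p = 0.1 in an exact two-sided permutation test, the smallest p that 3 against 3 allow. Of all counts of a library its share was 0.957%, 0.854% and 0.681% in knockout and 0.354%, 0.340% and 0.365% in control libraries, 2.35 times higher on average (exact two-sided permutation p = 0.1, n = 3 each). The share of all miRNAs in the library was itself lower in knockout hearts, at 29.2%, 31.6% and 33.3%, against 43.4%, 42.0% and 39.5% in control hearts. One row of the miRNA class, Snord43, carries a snoRNA name, and leaving it out of the sum gave Mir21a shares of 2.80% ± 0.652 in knockout and 0.862% ± 0.0667 in control hearts (SD, n = 3 each).

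Mir21a ranked 9, 10 and 13 among miRNA rows in knockout libraries and 18, 17 and 17 in control libraries. Counted per nucleotide of annotated hairpin the ranks were 10, 11 and 14 in knockout and 19, 19 and 17 in control libraries. With rows of identical mature sequence merged they were 10, 11 and 13 in knockout and 17, 16 and 16 in control libraries. Counts of different microRNAs also reflect how well each is captured in library preparation, so these ranks order reads and not molecules. By mean CPM, Mir21a stood at place 10 in knockout hearts, after Mirlet7g, a let-7 gene (10279 CPM), and before Mir378a, a microRNA gene of energy metabolism (9278 CPM). The knockout libraries of Mir21a overlapped those of Mirlet7g (9027, 10358 and 11454 CPM) and of Mir378a (8259, 9288 and 10287 CPM), so the order of these neighbours lies within their spread. In control hearts it stood at place 17, after Mir5099 (3443 CPM) and before Mir30c-1 (3035 CPM), and here too the neighbours overlapped, with 3956, 3062 and 3312 CPM for Mir5099 and 2999.5, 3375 and 2731 CPM for Mir30c-1.

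Few microRNAs at or above its control level rose as far. Of the 17 tested miRNA rows with a control mean at or above that of Mir21a, itself included, 1 had a larger log2 fold change, the row Snord43. Over all 312 tested miRNA rows, 12 had a larger one. In share of miRNA counts Mir21a gained 1.82 percentage points, the fourth-largest gain, which was 11.7% of the summed gain of the 504 rows whose mean share rose. The 3 rows with larger gains were Mir148a (14.5% ± 1.59 in knockout and 11.2% ± 0.834 in control hearts), Snord43 (4.36% ± 0.224 and 1.27% ± 0.0859) and Mir99a (8.13% ± 0.572 and 5.96% ± 1.05; SD, n = 3 per group throughout). The largest falls in share were those of Mir1a-2 (11.5% ± 0.316 in knockout and 16.9% ± 1.60 in control hearts) and Mir1a-1 (11.8% ± 0.339 and 16.8% ± 1.98), the 2 genes of the muscle microRNA miR-1, and of Mir378a (2.62% ± 0.166 and 3.79% ± 0.114). As a further measure that needs no scaling, the ratio of Mir21a to each of the other 311 tested miRNA rows was taken within each library after adding 1 to the counts. For 273 of them (87.8%) the ratio was higher in every knockout than in every control library, where the median miRNA row had 31 such ratios and 12 rows had more than Mir21a.

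**Figure D2:**
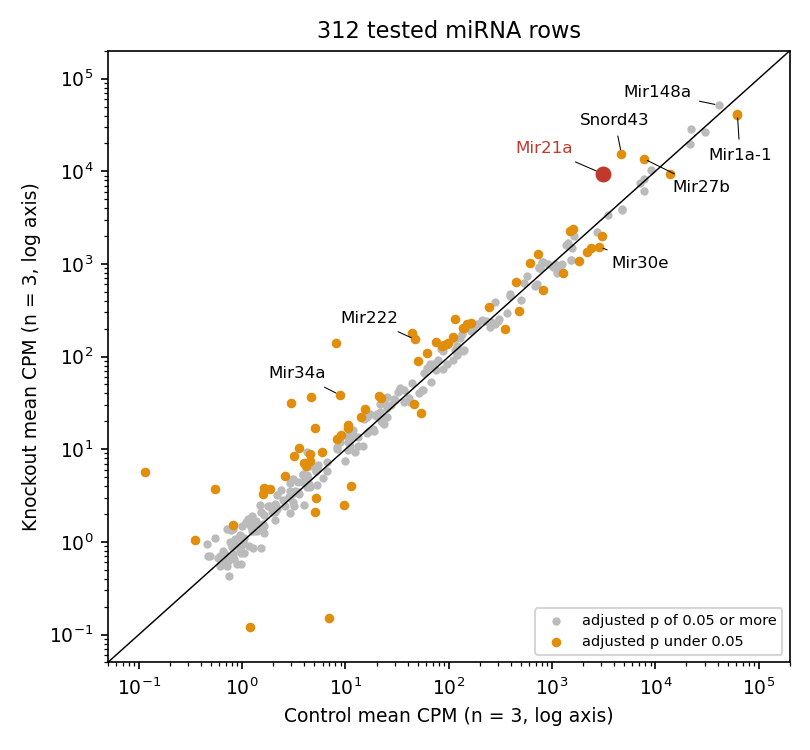
Mean CPM of the 312 tested miRNA rows in control hearts (x axis, log scale) and knockout hearts (y axis, log scale), n = 3 each, with the line of equal levels. Orange rows had an adjusted p under 0.05. Mir21a (red) lies above the line at 9350.3 CPM in knockout and 3135 CPM in control hearts. Among rows with a control mean at or above its own, only Snord43 lies further above the line.

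How far Mir21a rose depended on what the libraries were scaled to, and its direction and call did not in any of the 14 alternatives run. With factors from snoRNA and scaRNA rows, which moved the median log2 fold change over all tested rows by -0.85, Mir21a had a log2 fold change of 0.73 (adjusted p = 0.00204 by edgeR's quasi-likelihood test), 1.66-fold higher. The adjusted p ran from 2.30e-15 to 0.00204 over the 14 alternatives. The lowest came without a filter on low counts, where the median log2 fold change over the 9254 rows tested was -1.64. Without knockout replicate 3, the lowest knockout library, the log2 fold change was 1.89, and with factors from snRNA and rRNA rows, which moved the median by 0.55, it was 2.10.

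**Figure D3:**
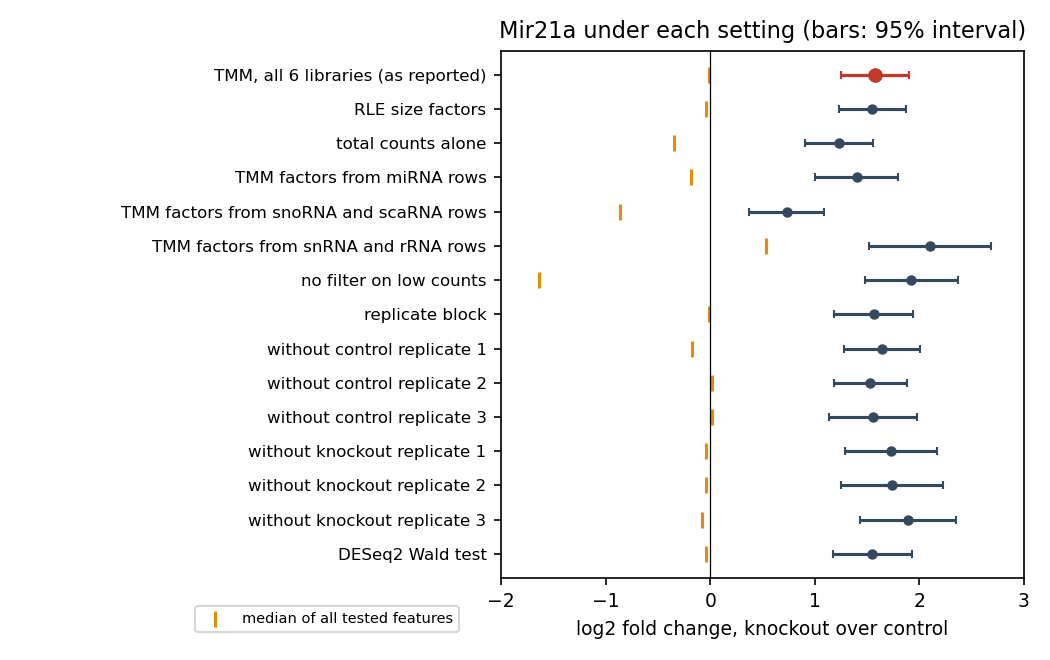
Log2 fold change of Mir21a, knockout over control, as reported (red) and under 14 alternatives (dark), with 95% intervals; orange ticks are the median of all rows tested in that setting. Each interval lies above 0, the lowest value being 0.73 with factors from snoRNA and scaRNA rows.

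In the authors' deposited table of their own comparison, Mir21a has no result. Its mean normalized count is given as 0 and its fold change and p as missing, although the authors' deposited normalized counts are 148289, 151875 and 115651 in knockout and 47744, 45657.5 and 46274 in control libraries. The same held for 270 rows with counts, 128 of them miRNAs, which together hold 32.0% of all counts. By counts Mir21a was the third of these miRNA rows, after Mir126a, the main endothelial microRNA gene, and Mir27b, of the miR-23b cluster. What the 270 rows share is position: of the 266 found in GENCODE, 259 (97.4%) overlap an exon, on the same strand, of a gene that is not a row of the table, as Mir21a does with Vmp1. Among the 8364 other counted rows found there, 168 (2.01%) do. Overlaps on the opposite strand did not separate the groups in that way, at 3.76% and 11.1%. Whether the deposited comparison rested on another annotation than the count files was not tested. Of the 270 rows, 27 miRNA rows were tested here and 7 were called, beside 23.4% of all tested miRNA rows and 50.2% of all rows. Besides Mir21a, these include Mir27b with 13719 ± 782 CPM in knockout and 7680.4 ± 1583 CPM in control hearts (SD, n = 3 each; log2 fold change 0.84, SE 0.15, adjusted p = 0.000737 by edgeR's quasi-likelihood test), a call that ended with factors from snoRNA and scaRNA rows (-0.00084, adjusted p = 0.997). Mir126a was not called (log2 fold change -0.13, SE 0.13, adjusted p = 0.424), with values from -0.97 with factors from snoRNA and scaRNA rows to 0.42 with factors from snRNA and rRNA rows.

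The microRNA rows whose levels followed Mir21a most closely over the 6 libraries were Mir222, Snord43, Mir6236, Mir547 and Mir221. They were the nearest of 170 tested miRNA rows with a mean of at least 10 CPM, by the root mean square difference of log2 CPM after each row was centred on its mean. That difference was 0.15, 0.18, 0.27, 0.29 and 0.31 in this order, and Pearson's r with Mir21a was 0.987, 0.980, 0.983, 0.945 and 0.935 over the 6 libraries. Since Mir21a differs between the groups, rows near it differ too, and all rows share each library's depth and scaling factor. Mir222 had 138, 189 and 133 CPM in knockout libraries and 47.0, 44.7 and 49.5 CPM in control libraries. It lay far above control in each knockout library, and its log2 fold change of 1.70 (SE 0.20) is close to that of Mir21a. Its neighbour on the X chromosome, Mir221, had 237, 301 and 228 CPM in knockout and 94.0, 148 and 105 CPM in control libraries (log2 fold change 1.14, SE 0.22). Both carry the same seed, which differs from that of miR-21a-5p, and they are shown because they are the pair nearest to Mir21a among known cardiac stress microRNAs.
miR-222-3p: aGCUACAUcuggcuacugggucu
miR-221-3p: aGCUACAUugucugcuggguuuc
Snord43, which had 14078, 16641 and 15486 CPM in knockout and 4483, 4997 and 4614 CPM in control libraries, is named as a box C/D snoRNA. Mir6236 (178 ± 35.8 CPM in knockout and 44.4 ± 5.19 CPM in control hearts) and Mir547 (16.8 ± 2.77 and 5.11 ± 0.978 CPM; SD, n = 3 each) were less abundant. Knockout replicate 3 was the lowest knockout library for Mir21a, Mir222, Mir221 and Mir6236, but not for Snord43 or Mir547.

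**Figure D4:**
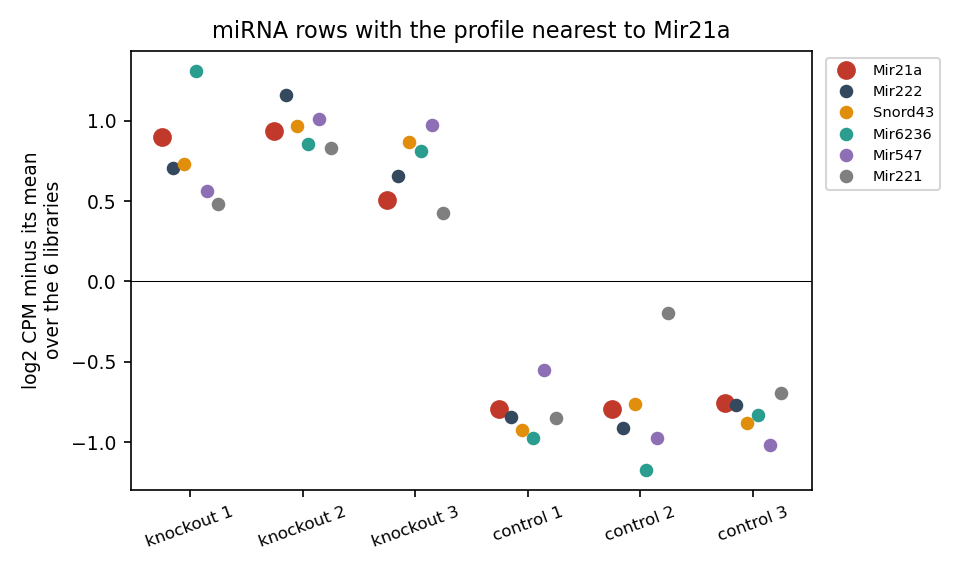
Log2 CPM of Mir21a (red) and of the 5 miRNA rows with the nearest profile, each centred on its own mean over the 6 libraries, by library. Every row is above its mean in the 3 knockout libraries and below it in the 3 control libraries; Mir221 in control replicate 2 is the point farthest from Mir21a among control libraries.

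Of 14 other microRNA genes known from cardiac stress, 6 rose and 0 fell in knockout hearts, with a median log2 fold change of 0.46, against 0.21 over all tested miRNA rows and -0.01 over all rows. The share called higher was 17% over all tested miRNA rows and 23.2% over all rows. This list and those below were chosen with earlier results of these data known, so such a comparison is not a test. Some members lie close together, as Mir221 and Mir222 do, and are not independent. Mir34a, a microRNA gene induced by p53, had 26.5, 44.4 and 45.0 CPM in knockout and 5.46, 13.6 and 7.32 CPM in control libraries, with no overlap (log2 fold change 2.13, SE 0.34, adjusted p = 0.000307 by edgeR's quasi-likelihood test). Such a lack of overlap held for 63% of all tested rows and 41.7% of the miRNA rows. Mir208b, in an intron of the fetal myosin gene Myh7, had 11.5, 19.5 and 23.5 CPM in knockout and 12.1, 11.6 and 7.70 CPM in control libraries, and these overlap (log2 fold change 0.79, SE 0.29, adjusted p = 0.0399). Mir31 and Mir34c (log2 fold changes 0.98 and 0.65) were the other called genes besides Mir221 and Mir222. The calls of Mir208b, Mir31 and Mir34c ended with total counts alone, with factors from miRNA rows or from snoRNA and scaRNA rows, and without control replicate 3, and that of Mir208b also without control replicate 2. The call of Mir221 ended with factors from snoRNA and scaRNA rows (0.31, adjusted p = 0.209). Mir132 and Mir212, which drive cardiomyocyte growth in mice, had log2 fold changes of 0.15 and 0.20 and were not called, and Mir210, the hypoxia microRNA gene, had -0.32 and was not called. The count depended on the scaling, with 3 higher and 3 lower with total counts alone, 3 and 0 with factors from miRNA rows, and 2 (Mir222 and Mir34a) and 7 with factors from snoRNA and scaRNA rows, where the median was -0.39. With factors from snRNA and rRNA rows 10 rose and 0 fell. Without control replicate 3, 3 rose and 0 fell. Mir21a, Mir222 and Mir34a were called higher in all 14 alternatives.

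Markers of the cells that a heart holds did not move together. Cardiomyocyte markers were abundant, with Mir1a-1 and Mir1a-2 the highest miRNA rows by mean CPM over all libraries, and Mir208a and Mir499, which lie in myosin genes, had at least 39.8 and 833 CPM in every library. The share called lower was 27% over all tested rows and 6.41% over tested miRNA rows, and that called higher 23.2% and 17%. Of 6 tested genes of the cardiomyocyte list 0 rose and 2 fell, Mir1a-1 (log2 fold change -0.57, SE 0.14, adjusted p = 0.00420 by edgeR's quasi-likelihood test) and Mir1a-2 (-0.61, SE 0.13, adjusted p = 0.00183). Both calls ended without knockout replicate 1 (-0.24 and -0.28), 2 (-0.37 and -0.41) or 3 (-0.44 and -0.48), with low counts kept, and with factors from snRNA and rRNA rows (0.0011 and -0.04). With total counts alone or factors from snoRNA and scaRNA rows 6 of the 6 fell, and 4 fell with factors from miRNA rows or without control replicate 1. The mature sequence of Mir1a-1 and Mir1a-2 is the same, so the split of reads between these rows is uncertain. Mir133a-1 and Mir133a-2 also had nearly equal counts and log2 fold changes (-0.45 and -0.44). The 6 rows are therefore not 6 independent members. The log2 ratio of Mir21a to the summed list was -2.85, -3.14 and -3.61 in knockout and -5.24, -5.57 and -5.24 in control libraries, 4.45-fold higher (exact two-sided permutation p = 0.1, n = 3 each).

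The fibroblast and smooth muscle list had 24404 to 32234 CPM in knockout and 27812 to 34974 CPM in control libraries, which overlap, and 2 of its 4 tested genes rose. Among all tested rows 23.2% were called higher, and among tested miRNA rows 17%. The genes that rose were Mir199a-1 (log2 fold change 0.79, SE 0.17, adjusted p = 0.00183 by edgeR's quasi-likelihood test) and Mir199b (0.74, SE 0.18, adjusted p = 0.00402), both known from fibroblasts. Since these 2 share a mature arm, they are not independent members. Both calls ended with factors from snoRNA and scaRNA rows (-0.05 and -0.09), and that of Mir199b also with total counts alone (0.41, adjusted p = 0.0674). With total counts alone 1 of the 4 rose and 2 fell, and with factors from snoRNA and scaRNA rows 0 rose and 2 fell. Mir143 and Mir145a, of smooth muscle, had log2 fold changes of -0.20 and -0.25 and were not called. Mir21a over the summed list was 3.29-fold higher in knockout hearts, with log2 ratios of -1.28, -1.61 and -2.07 in knockout and -3.49, -3.49 and -3.13 in control libraries. Without Mir143, which holds most of the counts, it was 2.08-fold higher, with 1.81, 1.81 and 1.40 in knockout and 0.65, 0.33 and 0.86 in control libraries (exact two-sided permutation p = 0.1 for either, n = 3 each). The part of these cells in the rise of Mir21a was not tested. Of the antifibrotic miR-29 genes, Mir29a and Mir29b-1 were tested, with log2 fold changes of -0.33 and -0.35, and 0 were called. With total counts alone or factors from snoRNA and scaRNA rows 2 of the 2 fell, and 1 fell with factors from miRNA rows, while both values were above 0 with factors from snRNA and rRNA rows, without a filter and without knockout replicate 1.

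The leukocyte list summed to 450.2 to 489.8 CPM in knockout and 361 to 474 CPM in control libraries. Over all tested rows 23.2% were called higher and 27% lower, and over tested miRNA rows 17% and 6.41%. Of the 5 tested genes of the leukocyte list 0 rose and 1 fell, Mir150, a gene of lymphocytes (log2 fold change -0.59, SE 0.21, adjusted p = 0.0368 by edgeR's quasi-likelihood test). That call ended without control replicate 1 or 2, without any of the 3 knockout libraries, without a filter and with factors from snRNA and rRNA rows. Other leukocyte genes were called higher in some alternatives, 4 of the 5 with factors from snRNA and rRNA rows, 3 without a filter, 2, 3 and 3 without knockout replicate 1, 2 or 3, and 1 without control replicate 1 or 2. With factors from snoRNA and scaRNA rows 0 rose and 2 fell. At 0.05 the authors' deposited DESeq2 comparison has Mir142 (0.552, adjusted p = 0.0495) and Mir146b (0.527, adjusted p = 0.0477) higher. In it Mir150 (-0.555, adjusted p = 0.0545), Mir342 (0.532, adjusted p = 0.0686) and Mir146 (0.116, adjusted p = 0.684) stayed above 0.05. Mir142, expressed across blood cells, had 133, 127 and 160.2 CPM in knockout and 70.8, 108 and 116 CPM in control libraries. These do not overlap, but Mir142 was not called here (0.51, SE 0.22, adjusted p = 0.0751 by edgeR's quasi-likelihood test). The groups did not overlap in 63% of all tested rows and in 41.7% of the miRNA rows. The part of leukocytes in the rise of Mir21a was not tested. In the red cell list Mir144 rose (0.85, adjusted p = 0.0353), Mir486 fell (-0.67, adjusted p = 0.00496) and Mir451a was not called (0.40, adjusted p = 0.258). Mir144 lost its call with total counts alone, with factors from miRNA rows or from snoRNA and scaRNA rows, and without control replicate 2, and Mir486 without each knockout library, without a filter and with factors from snRNA and rRNA rows. The sum of the red cell list was 2203 to 2920 CPM in knockout and 2643 to 3694 CPM in control libraries. Most of that sum was Mir486, with 1361 ± 122 CPM in knockout and 2159 ± 337 CPM in control hearts (SD, n = 3 each). Mir223, Mir155, Mir214, Mir199a-2, Mir133b, Mir29b-2 and Mir29c are listed at 0 in every library. Each of these 7 shares exon sequence on its own strand with another row of the table, as do the counted genes Mir34a, Mir24-2 and Mir29b-1. Among miRNA rows found in GENCODE, such overlap held for 128 of 1324 rows (9.67%) at 0 in every library. It held for 36 of 878 counted miRNA rows (4.10%). Whether the overlap led to the 0 was not tested, and the 0 is not read as absence of expression. Mir126b, listed at 0 too, lies opposite Mir126a.

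**Figure D5:**
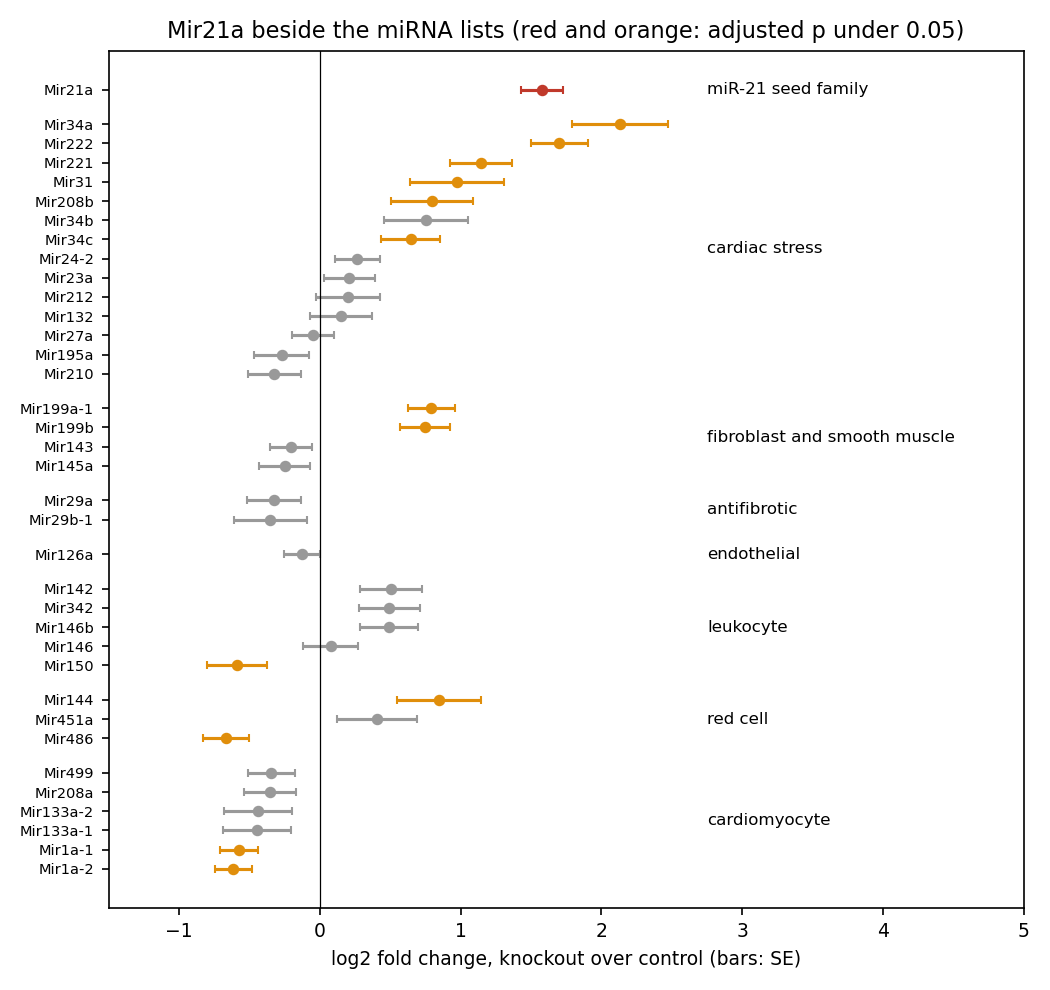
Log2 fold change of Mir21a (red) and of the tested members of the other lists, knockout over control, with SE, grouped by list; orange members had an adjusted p under 0.05 and grey ones did not. Mir21a (1.58) lies between Mir34a (2.13) and Mir221 (1.14), beside Mir222 (1.70), and above every tested fibroblast, leukocyte, endothelial, red cell and cardiomyocyte member.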

How the data were processed

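Small RNA was sequenced from whole hearts of 3 knockout and 3 control mice, and 4 technical replicates per mouse are mentioned in the labels' protocols. The authors deposited whole-number counts per gene, 1 column per mouse, and their normalized counts, a signal scaled by size factors, of the same libraries. The submitters' processing notes name cutadapt 1.14, Bowtie2 2.2.9, featureCounts 1.5.1, DESeq2 1.16.1 and the build mm10. The authors' deposited comparison gives log2 fold changes, their errors and test statistics (scores) and p-values. Strand and multi-mapping settings and the merging of technical replicates are not given in these sources. Here the counts of 1144 rows that passed edgeR's filter (minimum count 10, minimum total 15) were tested with edgeR 4.0.16 (TMM factors, quasi-likelihood test, Benjamini-Hochberg adjustment, threshold 0.05). These rows hold at least 99.9% of each library. Shares and ratios were compared by exact permutation tests (SciPy 1.17.1). Exon overlaps come from GENCODE M21 (GRCm38). DESeq2 1.42.0 was an alternative. In data simulated from these libraries (1144 rows, knockout against control), 99.1% of rows changed by 2 on the log2 scale and 60.4% of those changed by 1 were called. No 2 libraries agreed within sampling noise. The edgeR p-values set the group difference against the spread between these 3 mice per group, estimated with the help of all tested rows. Permutation p-values rest on regroupings of the 6 libraries. Named genes were Mir21a, the list members, the most abundant miRNA rows, rank and chromosome neighbours, nearest profiles and largest share changes. Mir21a and the lists were chosen with earlier results of these data known.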

Additional observations from a re-analysis of the deposited data

How the results depend on the processing

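Mir21a was called higher in 14 of 14 alternatives, with log2 fold changes from 0.73 to 2.10 and from 1.53 to 1.89 when each library was left out in turn. Of 1144 tested rows 574 were called. Without a filter on low counts 1141 of 9254 were called, and with 1 library left out 486 of 1168 (without control replicate 3) to 908 of 1410 (without control replicate 1). Of the miRNA rows tested in each setting 73 were called as reported, 169 with factors from snoRNA and scaRNA rows, 124 with factors from snRNA and rRNA rows, 121 without a filter and 54 to 106 with 1 library left out. The gain in share of miRNA counts was 1.52 to 2.14 percentage points with 1 library left out, that in share of all counts 0.415 to 0.552. The log2 gain over the cardiomyocyte list was 1.98 to 2.36 and over the fibroblast list 1.53 to 1.93. Added after seeing the data were the fibroblast ratio without Mir143 and the share without Snord43. Over 47 other named genes and all alternatives, 461 of 658 comparisons kept direction and call, 70 gained a call, 51 lost one and 76 changed sign, 15 of them in a gene called as reported or under the alternative. The log2 fold changes that changed sign with total counts alone were those of Mir132 (-0.21), Mir212 (-0.16), Mir23a (-0.13), Mir24-2 (-0.083), Mir146 (-0.25), Mir148a (-0.032), Mirlet7g (-0.17) and Mirlet7f-2 (-0.24). With factors from miRNA rows they were those of Mir132 (-0.047), Mir146 (-0.11), Mirlet7g (-0.015) and Mirlet7f-2 (-0.068). With factors from snoRNA and scaRNA rows they were those of Mir208b (-0.048), Mir132 (-0.69), Mir212 (-0.65), Mir34b (-0.093), Mir34c (-0.20), Mir23a (-0.63), Mir24-2 (-0.58), Mir199a-1 (-0.049), Mir199b (-0.094), Mir142 (-0.34), Mir146 (-0.76), Mir146b (-0.36), Mir342 (-0.35), Mir451a (-0.45), Mir144 (-0.0051), Mir148a (-0.52), Mir99a (-0.45), Mir27b (-0.00084), Mirlet7g (-0.68) and Mirlet7f-2 (-0.75). With factors from snRNA and rRNA rows they were those of Mir1a-1 (0.0011), Mir133a-1 (0.14), Mir133a-2 (0.15), Mir208a (0.20), Mir499 (0.19), Mir195a (0.25), Mir27a (0.48), Mir210 (0.21), Mir143 (0.35), Mir145a (0.32), Mir29a (0.25), Mir29b-1 (0.22), Mir126a (0.42) and Mir5099 (0.48). Without a filter they were those of Mir208a (0.0047), Mir499 (0.0011), Mir195a (0.063), Mir27a (0.29), Mir210 (0.027), Mir143 (0.15), Mir145a (0.11), Mir29a (0.030), Mir29b-1 (0.014), Mir126a (0.22) and Mir5099 (0.32). With 1 library left out, 9 genes had values of both signs: Mir27a (-0.13 to 0.17), Mir126a (-0.22 to 0.16), Mir5099 (-0.13 to 0.29), Mirlet7f-2 (-0.068 to 0.38), Mir146 (-0.022 to 0.37), Mir143 (-0.34 to 0.14), Mir145a (-0.40 to 0.060), Mir29a (-0.39 to 0.049) and Mir29b-1 (-0.48 to 0.056). The cause was not tested. The labels do not say whether replicate numbers pair the mice. Correlations of deviations were -0.13, -0.02 and -0.19 between same-numbered mice and ran from -0.05 to 0.17 between differently numbered mice. With 3 mice per group these values cannot decide whether the numbers pair them. The replicate block gave Mir21a a log2 fold change of 1.56, called 536 rows and 59 miRNA rows, and ended the calls of Mir34c (0.65, adjusted p = 0.0635) and Mir150 (-0.58, adjusted p = 0.101) by edgeR's quasi-likelihood test. The share and ratio differences keep their values under the replicate block by construction (1.82 and 0.478 percentage points, 2.15 and 1.72 log2), with an exact sign-flip p = 0.25, the smallest that 3 pairs allow.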
